A study of Mus musculus with 96 samples.

Results

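This comparison asked which transcripts still respond to inhibition of the mitochondrial ATP synthase when cytosolic NADH can be oxidized by another route. It used the 3 myoblast samples that carried LbNOX and received oligomycin and the 3 LbNOX samples that received DMSO, that is 6 of the 96 samples of the series, which their labels place in these groups. All were proliferating C2C12 cells, a mouse myoblast line, stably transduced with a doxycycline-inducible lentiviral LbNOX gene and kept in 300 ng/ml doxycycline. Oligomycin was given at 1 µM for 10 h, and DMSO was the vehicle, in media with glucose and glutamine but without pyruvate or uridine. The 6 control samples for this comparison were a separate stable line of the same cells, with inducible luciferase in place of LbNOX. They were 3 with oligomycin and 3 with DMSO, under the same doxycycline, dose and time. LbNOX samples treated with 0.5 µM piericidin (3) or 0.5 µM antimycin (3) for 10 h were the other groups. Nothing in the sources used here says that replicates were separate cultures, so the p-values measure the spread between these samples, which may be technical.

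LbNOX is a bacterial enzyme that oxidizes NADH to NAD+ while reducing oxygen to water, and the form used here stays in the cytosol. Oligomycin blocks proton flow through the ATP synthase, which stops mitochondrial ATP production and slows the respiratory chain behind it, whereas piericidin and antimycin block complexes I and III of that chain directly. The integrated stress response (ISR) is the program in which phosphorylated eIF2α favours translation of the transcription factor ATF4, which then induces genes for amino acid synthesis and uptake, tRNA charging and further stress regulators such as DDIT3.

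The 6 samples held 7796879 to 14960910 estimated counts (median 10590900.5). LbNOX had 759.9 to 960.4 CPM (counts scaled to a common library total) in the oligomycin samples and 899.5 to 964.0 in the DMSO samples, while the 12 samples of both lines had no count on the transgene of the other line. All 6 myoblast markers examined (Myod1, Myf5, Pax7, Des, Cdh15 and Vim) were detected, and their summed level was 4972 to 5048 CPM with oligomycin and 6627 to 6989 CPM with DMSO. Of 8 myotube markers 2 reached 16 counts in any of the 12 samples, with 21.9 to 23.7 CPM in all against 16.2 to 23.9, and 1 of these, Acta1, was called higher with oligomycin (log2 fold change 0.44, adjusted p = 0.0158). None of 3 adipocyte and none of 4 epithelial markers reached 16 counts, and 1 of 3 endothelial (Pecam1) and 1 of 3 leukocyte markers (Cd68) did, with sums under 4 CPM in each sample. Adipoq and Epcam were at 0 in all 6 samples. Cd68 had 7, 16 and 19 raw counts with oligomycin and 5, 13 and 5 with DMSO and was also called higher (1.36, adjusted p = 0.0139), and the leukocyte sum was 0.967 to 2.18 CPM against 0.448 to 0.936. Most of the myoblast sum was Vim, which fell by 0.31 on the log2 scale. In such bulk samples fewer cells of a type and less RNA per cell cannot be told apart, and the part of the marker differences in the results below was not tested. The labels hold a position code that they do not explain. Read as a well of a plate, it puts oligomycin replicates 2 and 3 and DMSO replicate 3 in inner wells and the other 3 samples in outer ones, so each kind of well has 1 sample in one of its arms. Under that reading the median log2 difference of the ISR regulators described below was 1.83 within inner and 1.78 within outer wells, and that of cholesterol synthesis genes -1.05 and -0.99, with no test. Of the 24 lists, 15 had medians of the same sign within 1.5 times of each other. The medians had opposite signs for NADH shuttles and lactate (-0.098 inner and 0.091 outer), collagens and matrix (0.033 and -0.080) and autophagy (0.091 and -0.012). They were over 1.5 times apart for the other 6, which were immediate early genes (-0.25 and -0.067), ATP synthase subunits (0.075 and 0.18), mitochondrially encoded mRNAs (0.11 and 0.21), glycolysis (0.060 and 0.11), glucose-sensing genes (-0.20 and -0.10) and p53 targets (0.039 and 0.013).

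Oligomycin still changed a large share of the transcriptome of LbNOX cells. Of 11981 genes tested, 4220 (35.2%) passed an adjusted p of 0.05 in the quasi-likelihood F test of edgeR, 2094 higher (17.5%) and 2126 lower (17.7%), and 627 (5.23%) of them changed at least 2-fold, 325 higher (2.71%) and 302 lower (2.52%). In the control cells 6081 genes were called (50.8%), 2935 higher (24.5%) and 3146 lower (26.3%). Of the LbNOX calls, 85.5% were called in the same direction in control cells, and these made up 59.3% of the control calls. The lines share no samples. Each transgene was in its own stable line, so LbNOX and any other difference between the lines cannot be told apart here or below. The 325 genes at least 2-fold higher in LbNOX cells had a median log2 fold change of 1.47 there, by their choice, and of 1.84 in control cells, and the 302 lower genes had -1.27 and -1.66. Chosen the other way, the 649 genes at least 2-fold higher in control cells (5.42%) had medians of 1.43 in control and 0.95 in LbNOX cells, and the 861 lower ones (7.19%) of -1.37 and -0.81. The difference between both responses, tested as an interaction, was called for 956 genes (7.98%), 455 with a higher (3.8%) and 501 with a lower (4.18%) log2 fold change in LbNOX cells. These shares of all genes are the background for each count of list members given below. The called pair furthest to the upper left of the plot of both responses, named after its values were seen, was of predicted genes with few counts. Gm10039 had 50, 33 and 59 raw counts in LbNOX cells with oligomycin, 0 in their DMSO samples, 0 in control cells with oligomycin and 0, 0 and 22 in control cells with DMSO. Gm47654 had 1, 21 and 9, then 0 in each of the next 6 samples in that order, and 5, 24 and 16 in control cells with DMSO, so neither has a fold change that these counts make precise.

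**Figure D1:**
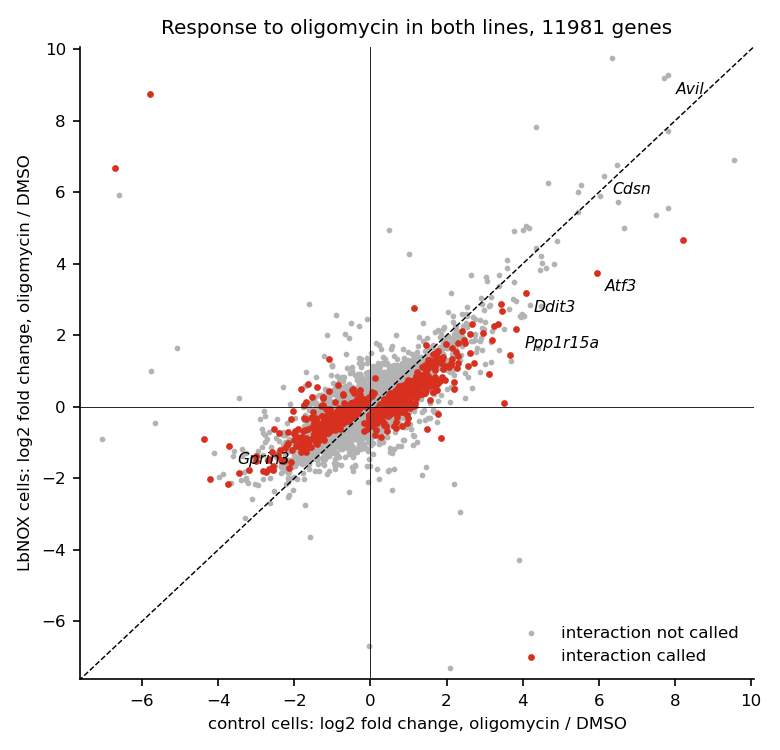
Log2 fold change of oligomycin over DMSO in control cells (x axis) and LbNOX cells (y axis) for the 11981 genes tested, with the dashed line at equal change. The 956 genes whose interaction was called are red, and Atf3, Ppp1r15a and Ddit3 lie below the line among genes that rose, while Cdsn lies close to it.

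Several of the genes named for the size of their increase in LbNOX cells were almost silent with DMSO. They were taken from called genes with a mean of at least 50 normalized counts (counts divided by a size factor of the sample) over the 6 samples and groups that did not overlap, leaving out predicted genes and pseudogenes, so genes of lower counts are not among them. Cox6a2, the heart and muscle form of a cytochrome c oxidase subunit (chr7:128205435-128206387, GRCm38), had 107, 78 and 96 raw counts with oligomycin and 0 in each of the 3 DMSO samples. Against a floor of 3 counts over the DMSO group it was at least 128-fold higher. Avil, which encodes the actin-binding protein advillin, had 226, 146 and 296 raw counts against 0, 0 and 1, a ratio of 915 with a 95% counting interval of 164 to 36210. Car6, a secreted carbonic anhydrase, had 402, 282 and 364 raw counts against 0, 2 and 0, a ratio of 718 (198 to 5937). These intervals cover counting error only.

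Cdsn, the desmosomal protein corneodesmosin, had 1303, 1251 and 1272 normalized counts with oligomycin against 10.7, 14.0 and 18.7 with DMSO (log2 fold change 6.47, SE 0.16, adjusted p = 1.99e-24). The peptide hormone gene Adm2 had 130, 109 and 96.9 against 1.79, 3.32 and 1.96 (log2 fold change 5.44). As the choice required, the groups of both genes are apart. Further down the 12 increases that this rule ranks highest stood Extl1 (5.36), Atp2a3 (5.06), Trib3 (4.64), Cth (4.44), Angptl6 (4.21), Acot2 (4.04) and Vldlr (3.83) as log2 fold changes. Atp2a3 encodes a calcium pump of the endoplasmic reticulum, Acot2 a mitochondrial acyl-CoA thioesterase and Vldlr a lipoprotein receptor. None of these 12 passed the test of the interaction, which is imprecise for genes almost silent with DMSO. Their interactions ran from -2.13 for Extl1 (adjusted p = 0.176) to 3.42 for Cox6a2 (adjusted p = 0.106), so equal responses are not shown.

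All 13 ISR regulators tested rose in LbNOX cells, with a median log2 fold change of 1.79 against -0.0081 over all genes, and 13 of 13 also rose in control cells (median 2.47). A further member, Cebpb, was below the count filter. Atf4, the central transcription factor of the program (chr15:80255184-80257541), had 6561, 6475 and 6431 normalized counts with oligomycin and 2356, 2306 and 2310 with DMSO, a difference far beyond the spread of either group (log2 fold change 1.48, SE 0.032, adjusted p = 2.22e-25). Trib3, a pseudokinase that restrains ATF4 and DDIT3 (chr2:152337422-152344032), stood at 1955, 1861 and 1934 against 60.9, 89.8 and 76.6 (log2 fold change 4.64, SE 0.092, adjusted p = 2.11e-26). For Chac1, which degrades glutathione, the values were 1226, 1195 and 1303 against 169, 181 and 163 (2.86, SE 0.11, adjusted p = 2.33e-19). In the promoters of ISR genes ATF4 binds composite elements known as CARE, and their core was searched as TGATGNAA, on both strands, in the 250 bases before RefSeq starts.

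The core was present in 3.45% of 32851 windows of all genes, in 3 of 17 windows of 12 ISR regulators (17.6%), in 3 of 13 windows of 12 amino acid and one-carbon synthesis genes (23.1%) and in 3 of 12 windows of 12 tRNA synthetase genes (25%). Among the genes at least 2-fold higher in LbNOX cells it was present in 30 of 309 windows of 240 genes with a window (9.71%), and among those at least 2-fold lower in 7 of 301 (2.33%). Shown are the stretches of the 3 members of these lists with a match and the largest increase, 5′ to 3′ on the gene's strand, with the match in capitals, from RefSeq on GRCm38.p6. The match of Atf3 lies 110 to 103 bases before a RefSeq start (chr1:191183406-191183473, minus strand) that is inside the span of the gene given below. That of Chac1 lies 193 to 186 bases before a start (chr2:119351019-119351086, plus strand). For Pycr1 it lies 103 to 96 bases before a start (chr11:120643814-120643881, minus strand).
Atf3: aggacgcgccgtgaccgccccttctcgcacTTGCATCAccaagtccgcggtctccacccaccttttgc
Chac1: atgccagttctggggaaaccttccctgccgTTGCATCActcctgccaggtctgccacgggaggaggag
Pycr1: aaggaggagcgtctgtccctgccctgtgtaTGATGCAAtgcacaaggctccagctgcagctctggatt
Atf3 and Chac1 carry the core in the orientation opposite to Pycr1. A match is a description of the letters and was not tested as a site.

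The ISR regulators differed in how much of the control response was seen in the LbNOX line. The interaction was called lower for 6 of the 13 and higher for none, against 4.18% of all genes called lower. Atf3, a stress-induced repressor (chr1:191170296-191218039), had 176, 126 and 163 normalized counts in LbNOX cells with oligomycin and 676, 602 and 631 in control cells, whereas its DMSO samples had 16.6 or less in LbNOX cells and a mean of 10.1 ± 3.04 in control cells (SD, n = 3). Its log2 fold change was 3.75 in LbNOX cells and 5.94 in control cells (interaction -2.19, SE 0.40, adjusted p = 0.000408). Ppp1r15a, the regulatory subunit that directs dephosphorylation of eIF2α, had 1021, 971 and 977 against 2652, 2381 and 2663, with interaction -1.64 (SE 0.13, adjusted p = 4.12e-10).

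Ddit3, the transcription factor CHOP (chr10:127290774-127296288), reached 1338, 1354 and 1359 normalized counts in LbNOX cells and 2737, 2823 and 2701 in control cells (interaction -0.89, SE 0.092, adjusted p = 7.98e-08). Atf3 and Ppp1r15a are also the genes named for the lowest interactions, so their place at the end of the range follows from that choice. The stress-induced cofactor Nupr1 and the mTORC1 inhibitor Sesn2 had interactions of -0.71 and -0.61, both called. Atf4 itself differed least of the 6, with an interaction of -0.18 (SE 0.045, adjusted p = 0.0116) that was not called without the count filter (adjusted p = 0.229). For Trib3 the interaction was -0.26 (adjusted p = 0.239), for Chac1 -0.28 (adjusted p = 0.306) and for Eif4ebp1, a repressor of cap-dependent translation, -0.11 (adjusted p = 0.183), none of them called.

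**Figure D2:**
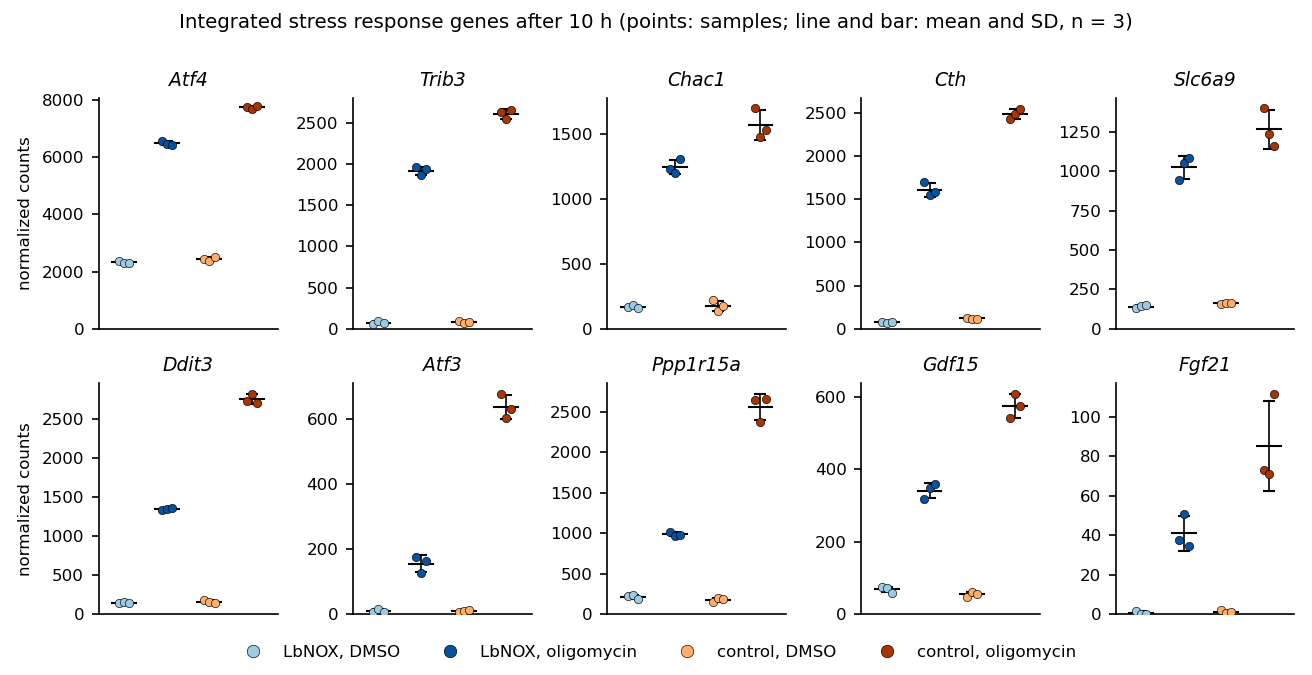
Normalized counts (y axis, linear from 0) of 10 stress response genes in each sample of LbNOX and control cells with DMSO or oligomycin, with the mean and SD of 3 samples. Oligomycin samples of LbNOX cells lie above their DMSO samples for every gene shown, at 1338 to 1359 for Ddit3 and 126 to 176 for Atf3, where control cells reached 2701 to 2823 and 602 to 676.

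Genes of amino acid and one-carbon synthesis rose almost as a whole. Of 14 tested, 13 were higher (median 1.55 for all 14) and only Cbs, which joins serine to homocysteine, was not called (-0.12). Cth, the cystathionine lyase of cysteine synthesis (chr3:157894248-157925077), had 1701, 1545 and 1585 normalized counts with oligomycin against 77.0, 70.5 and 74.6 with DMSO (log2 fold change 4.44, SE 0.10, adjusted p = 9.04e-25), and its control response was 4.35 (interaction 0.097, SE 0.14, adjusted p = 0.774). Aldh1l2, a mitochondrial folate enzyme, had 3093, 2935 and 2802 against 428, 372 and 395. Its response of 2.89 was smaller than that of 3.44 in control cells (interaction -0.55, adjusted p = 7.11e-05). The alanine aminotransferase gene Gpt2 (2.53), the proline synthesis gene Pycr1 (2.24), the serine synthesis gene Psph (2.13) and the asparagine synthetase gene Asns (1.55) also rose. The interaction was called lower for 4 of the 14, which were Asns (-0.22, adjusted p = 0.0367, not called in 10 of 18 alternative fits), Psph, Mthfd2 and Aldh1l2, and the number ran from 1 to 7 over the alternative fits (1 without the count filter and without control DMSO replicate 3).

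Among 12 amino acid transporters 10 rose, 1 fell and the median was 1.36. Slc6a9, a glycine transporter, had 944, 1050 and 1084 normalized counts against 130, 143 and 149 (log2 fold change 2.87, adjusted p = 8.38e-22), and its interaction was -0.069 (adjusted p = 0.822). Slc7a11, the cystine importer, rose by 2.82. The arginine transporter gene Slc7a3 had 42.7, 18.4 and 50.4 normalized counts with oligomycin against 0, 0.665 and 2.95 with DMSO. The transporter that fell, Slc38a2, changed by only -0.12, and its call was lost in several alternative fits (without DMSO replicate 1 or oligomycin replicate 2 or 3 among them). The interaction was called lower for 5, among them the heavy chain Slc3a2 (-0.48, adjusted p = 1.75e-07) and the neutral amino acid carriers Slc1a4 (-0.56) and Slc1a5 (-0.58). Of 20 cytosolic tRNA synthetases, which charge tRNAs with their amino acids, 17 rose and Qars fell (-0.16, not called without DMSO replicate 1 or 2 or oligomycin replicate 1 or 3), with a median of 0.98. The tryptophan enzyme Wars had 4290, 4095 and 4299 normalized counts against 1098, 1316 and 1028 (1.88, SE 0.062, adjusted p = 6.31e-21), and Sars (1.54) and Eprs (1.49) came next. Their control responses had a median of 1.25, and the interaction was called for 3 lower and 1 higher, beside 4.18% and 3.8% of all genes, with 1 to 9 called lower over the alternative fits (1 without DMSO replicate 2 or oligomycin replicate 2 of the LbNOX cells).

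Of 5 secreted stress factors tested 4 rose. Gdf15, a circulating marker of mitochondrial disease (chr8:70629393-70632456), had 318, 348 and 358 normalized counts with oligomycin against 74.3, 71.1 and 59.9 with DMSO in LbNOX cells, and a mean of 575 ± 33.4 (SD, n = 3) in control cells with oligomycin. The interaction was -1.03 (SE 0.17, adjusted p = 0.000116). The endocrine factor gene Fgf21 had 35, 36 and 35 raw counts against 2, 0 and 0, a ratio of 72.6 (95% counting interval 19.6 to 608). Stc2 rose by 2.60 and Vegfa by 1.25. The lipase inhibitor gene Angptl4 was not called in LbNOX cells (-0.13) but rose in control cells (0.28), with a called interaction of -0.41 (adjusted p = 0.00284).

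Ribosome biogenesis genes rose without exception, 16 of 16, with a median of 0.59, and Nop14, a factor of small subunit assembly, rose most (1.26; 1264, 1215 and 1215 normalized counts against 489, 551 and 505). Their control median was 0.85 and the interaction was called lower for 7, where 4.18% of all genes had a lower interaction. Of 15 mitochondrial chaperones and proteases 9 rose and none fell (median 0.30), against 17.5% of all genes higher and 17.7% lower. The matrix protease gene Lonp1 had 1281, 1593 and 1581 against 297, 341 and 288 (2.26, SE 0.11, adjusted p = 3.42e-16), and the chaperone genes Dnaja3 (1.17) and Hspa9 (1.10) followed. Chaperones of the endoplasmic reticulum went mostly the other way, with 12 of 18 lower, 3 higher and a median of -0.41, so the number higher is near the share of all genes. The 3 that rose were Herpud1 (1.32), a component of ER-associated degradation, the luminal chaperone gene Hspa5 (0.45) and its co-chaperone Dnajb9 (0.25), whereas Sdf2l1 fell by 1.20 and Creld2 by 1.04 on the log2 scale.

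**Figure D3:**
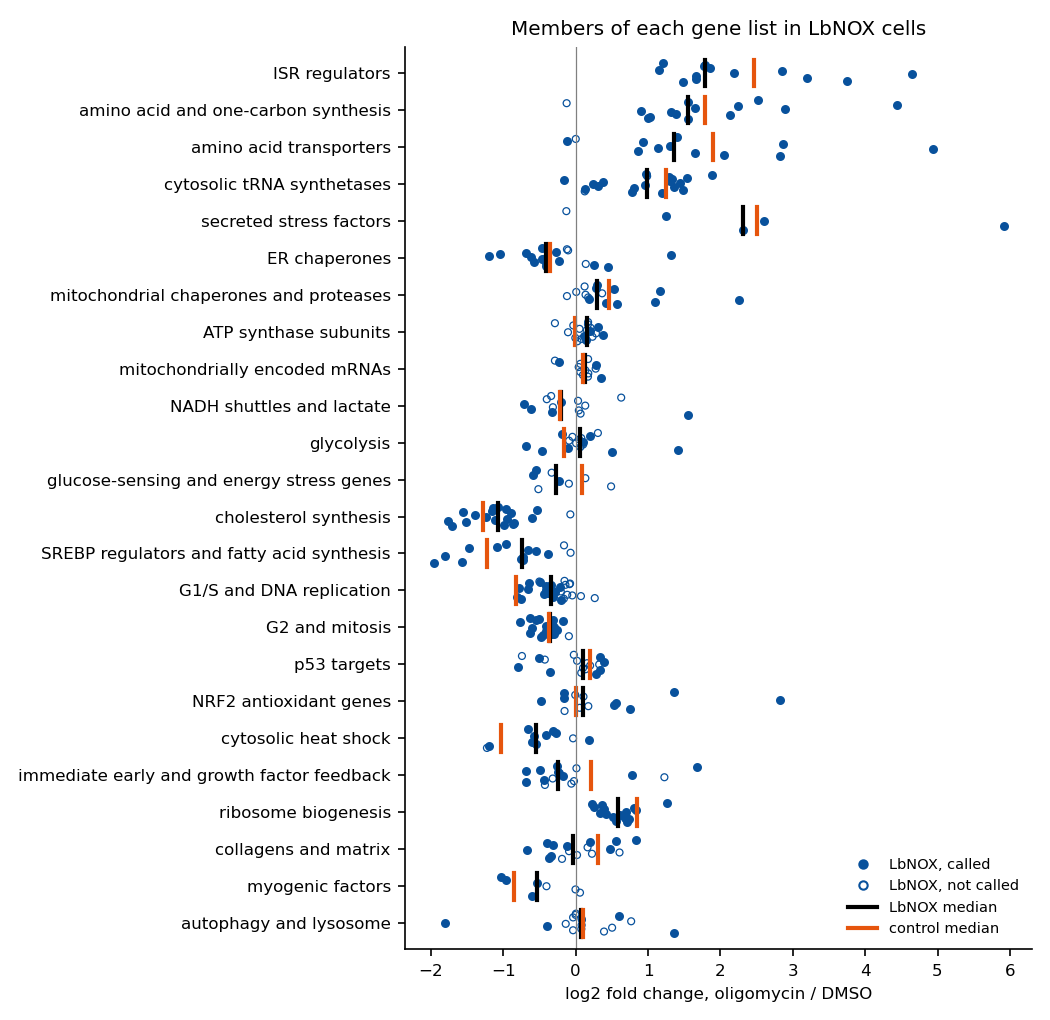
Log2 fold change of oligomycin over DMSO in LbNOX cells (x axis) for each tested member of 24 gene lists, filled where called, with the median in LbNOX cells (black) and in control cells (orange). Medians in LbNOX cells run from -1.07 for cholesterol synthesis to 2.31 for secreted stress factors.

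By the same rule as for the increases, the decrease was largest for Mertk. This gene, which encodes a receptor for apoptotic cells, had 24.5, 11.3 and 17.8 normalized counts with oligomycin against 109, 83.8 and 87.4 with DMSO (log2 fold change -2.35, SE 0.25, adjusted p = 5.50e-09). The vasopressin receptor gene Avpr1a fell by 2.17, the oxysterol hydroxylase gene Cyp39a1 by 2.11, Prrg4 by 2.02, Synpo by 2.01, Insig1 by 1.96, the angiopoietin gene Angpt1 by 1.85, Stard4 by 1.81, the chemokine gene Ccl2 by 1.78, the ephrin receptor gene Epha4 by 1.78, Arc by 1.77 and Car8 by 1.77. The choice required groups that did not overlap, which 44.3% of all genes had in either direction, so nothing is read from their separation. Of these, Avpr1a, Synpo, Angpt1, Stard4, Ccl2 and Arc had a called interaction, each with a smaller decrease in LbNOX than in control cells. Those of Avpr1a and Ccl2 were not called in 4 of 18 alternative fits and that of Arc in 10 of 18, oligomycin replicate 1 of the LbNOX cells being among the samples whose omission ended the call of Avpr1a and Ccl2.

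Of 19 genes of cholesterol synthesis 18 fell in LbNOX cells, with a median of -1.07 (control -1.28, 19 of 19). Only Tm7sf2, a sterol reductase, was not called (-0.074). Idi1, the isopentenyl diphosphate isomerase (chr13:8885501-8892451), had 454.5, 430 and 471 normalized counts with oligomycin and 1606, 1500 and 1503 with DMSO (log2 fold change -1.76, SE 0.075, adjusted p = 4.59e-18). Its decrease was larger in control cells (-2.57, interaction 0.80, SE 0.11, adjusted p = 4.66e-06). Hmgcs1, the HMG-CoA synthase, had 601, 572 and 564 against 1883, 1925 and 1866 (-1.71, SE 0.066, adjusted p = 3.26e-19; interaction 0.42, adjusted p = 0.00293).

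The interaction was called for 3 of the 19, all higher (Idi1, Hmgcs1 and Nsdhl), and Nsdhl was not called in 11 of 18 alternative fits. These enzymes are classical targets of SREBP2, whose sterol regulatory element was searched as TCACNCCAC. It was present in 1.05% of all windows and in 1 of 17 windows of 14 genes of the list, that of Hmgcs1, 137 to 129 bases before its start (chr13:119690184-119690252, plus strand, GRCm38.p6), shown with the match in capitals because it is the one member that fell and has it.
Hmgcs1: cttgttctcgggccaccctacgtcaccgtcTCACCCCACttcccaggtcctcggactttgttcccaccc

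Of 14 SREBP regulators and fatty acid synthesis genes 12 fell, with a median of -0.74 against -1.22 in control cells. Insig1, which retains SREBP in the endoplasmic reticulum, had 153, 253 and 171 normalized counts against 726, 753 and 740 (-1.96, SE 0.23, adjusted p = 4.87e-08), and its interaction was 0.040 (adjusted p = 0.972). The desaturase gene Scd2 (-1.47, interaction 0.87, adjusted p = 6.14e-11), the sterol carrier gene Stard4, Elovl6 and Srebf1 fell in LbNOX cells and had called interactions, each with a smaller decrease than in control cells. Acaca and Fads1 were not called.

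Cell cycle genes were taken as a list for G1/S and DNA replication and a list for G2 and mitosis. Of 30 genes of G1/S and DNA replication, 19 fell in LbNOX cells (median -0.34) and 27 in control cells (median -0.82), and the interaction was called higher for 19 of 30 against 3.8% of all genes. Over the alternative fits 16 to 20 of the 30 had a called interaction. Of 23 genes of G2 and mitosis, 22 fell in LbNOX cells (median -0.35) and 20 in control cells (median -0.37), and the edgeR interaction was called for 0 of 23. At an unadjusted p under 0.05 it passed for 8 of the 23, DESeq2 called 0, and 1 was called without oligomycin replicate 2 of the control cells. The median interaction was 0.47 for the first list and 0.011 for the second, and the difference between the lists was not tested.

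Ccne1, the cyclin that drives entry into S phase, had 510, 475 and 570 normalized counts with oligomycin against 881, 917 and 819 with DMSO in LbNOX cells (log2 fold change -0.75, SE 0.088, adjusted p = 4.51e-08). In control cells it fell to 278, 308 and 313 (-1.49, interaction 0.74, SE 0.13, adjusted p = 0.000166). Tk1, the thymidine kinase, had 1182, 1203 and 1143 against 1978, 2013 and 2051 in LbNOX cells (-0.78) and 794, 824 and 758 in control cells with oligomycin (interaction 0.55, adjusted p = 9.24e-06). For both genes the oligomycin samples of LbNOX cells lay between their DMSO samples and the oligomycin samples of control cells. The replication genes Ccne2 (-0.16), Mcm3 (-0.12) and Mcm10 (-0.21) were not called in LbNOX cells and fell in control cells by 1.11, 0.52 and 0.69, with called interactions. Mki67, the proliferation antigen, had 708.5, 755 and 672 against 1138, 1167 and 1315 (-0.76, SE 0.067, adjusted p = 1.51e-10), and its control response was -0.999 (interaction 0.24, SE 0.095, adjusted p = 0.139). E2F sites were searched as TTTCCCGC and TTTGGCGC. One or both were present in 5 of 28 windows of 23 G1/S genes (17.9%), in 0 of 18 windows of 18 G2 and mitosis genes and in 1.3% of all windows.

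**Figure D4:**
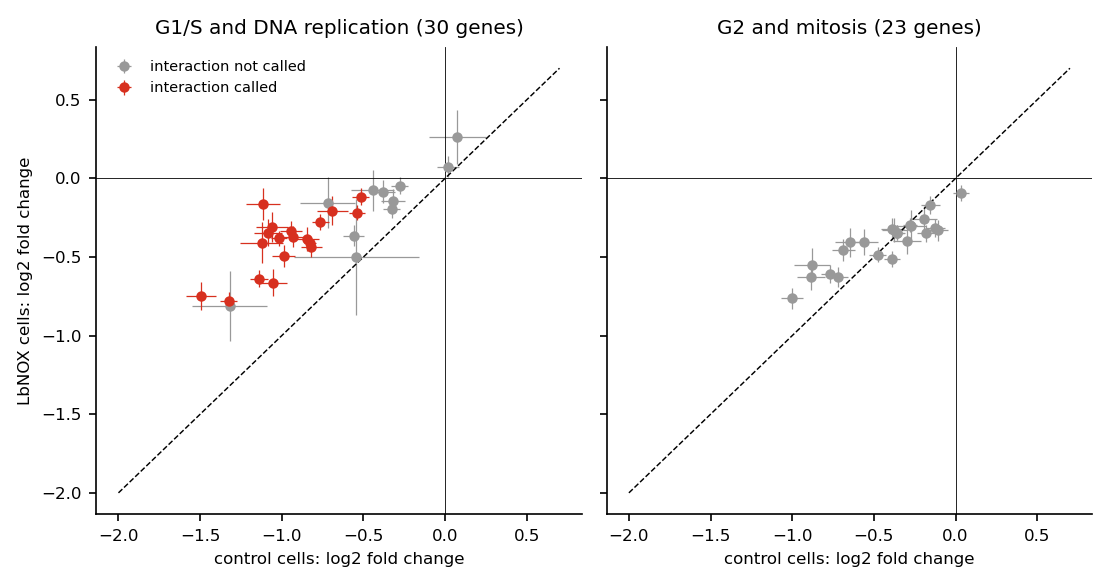
Log2 fold change of oligomycin over DMSO (points, with standard errors) of each G1/S and DNA replication gene (left) and each G2 and mitosis gene (right) in control cells (x axis) and LbNOX cells (y axis), with the dashed line at equal change. Of 30 genes on the left 19 are red for a called interaction and lie above the line, and of 23 on the right none is red.

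The interaction was also called for members of other lists, beginning with heat shock, immediate early and matrix genes. Of 11 cytosolic heat shock genes 8 fell and 1 rose in LbNOX cells (median -0.54, control -1.04), and the interaction was called higher for 6. The shares of all genes were 17.7% lower, 17.5% higher and 3.8% with a higher interaction. Hspa1b, an inducible HSP70, had 97.1, 122 and 89.0 normalized counts against 264, 219 and 218 in LbNOX cells and a mean of 46.2 ± 5.17 (SD, n = 3) in control cells with oligomycin (interaction 1.17, adjusted p = 9.98e-05). Hspa1b has a near-identical copy, Hspa1a, so the split of estimated counts between them is uncertain. Of 16 immediate early and feedback genes 8 fell and 2 rose (median -0.24), beside the same shares, with 5 to 8 lower over the alternative fits (5 without the count filter, in a fit of only the 6 samples, and without DMSO replicate 1, DMSO replicate 2 or oligomycin replicate 2). In control cells 8 rose and 5 fell (median 0.22, with 24.5% of all genes higher and 26.3% lower), and the interaction was called lower for 7, against 4.18% of all genes. Dusp1, a phosphatase that silences MAP kinases, fell by 0.23 in LbNOX cells and rose by 0.96 in control cells (interaction -1.19, adjusted p = 2.37e-08). Ier3 and Klf6 likewise fell in one line and rose in the other. Myc, the growth-promoting transcription factor, had 1380, 1364 and 1303 against 822, 747 and 790 (0.78; interaction -0.84, adjusted p = 3.04e-08).

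Among 16 collagen and matrix genes 4 rose and 6 fell (median -0.036, control 0.30), and the interaction was called lower for 6 and higher for 1. Of all genes 17.5% were higher and 17.7% lower, and 4.18% had a lower and 3.8% a higher interaction. Timp3, a metalloproteinase inhibitor, had 4591, 4597 and 4687 normalized counts against 2671, 2566 and 2565 in LbNOX cells (0.83) and rose by 1.71 in control cells (interaction -0.88, adjusted p = 7.34e-12). Of 7 myogenic factors tested 4 fell (median -0.53), which were Id3 (-1.03), Id2 (-0.96), Myod1 (-0.60) and Id1 (-0.53). Myod1 directs the muscle lineage and the Id proteins sequester its E protein partners. The interaction was called higher for Id2 (0.82) and Id3 (0.76).

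Of 18 genes for ATP synthase subunits and their inhibitor 5 rose and none fell, with a median of 0.15, and the number ran from 3 to 6 over the alternative fits (3 without oligomycin replicate 2). Atp5g1, a subunit of the c ring where oligomycin binds, rose by 0.38 (2038, 2158 and 2097 against 1653, 1532 and 1645 normalized counts; adjusted p = 2.95e-08). Of 13 mitochondrially encoded mRNAs 2 rose (mt-Nd1 by 0.36, mt-Co1 by 0.28) and mt-Co3 fell by 0.23 (median 0.13), against 17.5% of all genes higher and 17.7% lower, with 2 to 4 higher over the alternative fits (4 in a fit of only the 6 samples) and 1 to 2 lower (2 without the count filter). These RNAs were measured in polyA-selected libraries.

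Of 13 genes of NADH shuttles and lactate metabolism 1 rose and 4 fell (median -0.20), where 17.5% of all genes were called higher and 17.7% lower. Over the alternative fits 1 to 2 were called higher and 3 to 5 lower (3 without oligomycin replicate 2). In 4 the interaction was called higher, or in 1 without DMSO replicate 3 of the LbNOX cells. Got1, the cytosolic aspartate aminotransferase, had 1818, 1451 and 1563 normalized counts against 579, 554 and 517 (1.55, SE 0.080, adjusted p = 5.36e-16), and the aspartate-glutamate carrier gene Slc25a12 had 415, 489 and 525 against 708, 782 and 694 (-0.61). Slc16a3, the lactate exporter MCT4, was not called in LbNOX cells (100, 97.5 and 110 against 127, 150 and 111) and fell in control cells from 65.6 ± 11.4 to 15.3 ± 6.46 (SD, n = 3; interaction 1.76, SE 0.33, adjusted p = 0.000566). Of 16 glycolysis genes 4 rose and 4 fell (median 0.056, control -0.16), against the same shares of all genes, and the interaction was called higher for 6 and lower for 1. That 1 was Hk2, a hexokinase, with 591, 571 and 569.5 against 220.2, 212 and 216 in LbNOX cells (1.42) and a log2 fold change of 2.29 in control cells (interaction -0.88, adjusted p = 0.000116). Of 8 glucose-sensing and energy stress genes 3 fell (Pfkfb4, Klf10 and Prkaa1) and none rose (median -0.28), again beside 17.7% of all genes lower and 17.5% higher. Pfkfb4 was not called without DMSO replicate 2 or in a fit of only the 6 samples, and Prkaa1 was not called without DMSO replicate 3, while 1 gene was called higher without oligomycin replicate 1.

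Among 17 p53 targets 4 rose and 3 fell (median 0.10), where 17.5% and 17.7% of all genes did, with 2 to 4 higher over the alternative fits (2 in a fit of only the 6 samples and without DMSO replicate 3 or oligomycin replicate 1). Cdkn1a, the cell cycle inhibitor p21, rose by 0.28 (1430, 1471 and 1343 against 1194, 1094 and 1206). Of 13 NRF2 antioxidant genes 5 rose, with Slc7a11 and Sqstm1 (1.36) the largest, and 3 fell (median 0.11), or 1 to 3 over the alternative fits (1 without the count filter, in a fit of only the 6 samples and without oligomycin replicate 2). Of 16 autophagy and lysosome genes 2 rose (Sqstm1 and Ctsl) and 2 fell (Tfeb and Atg5), with a median of 0.080, and 4 rose without the count filter and with the position code as a factor. Against 7.98% of all genes, 5 of the p53 targets had a called interaction, or 2 without the count filter and 3 without DMSO replicate 2 or 3 of the LbNOX cells. For the NRF2 genes the number was 4, or 2 in a fit of only the 12 samples. For the autophagy genes it was 3, or 1 without any 1 of the LbNOX oligomycin replicates, LbNOX DMSO replicate 3, control DMSO replicate 1 or 2, or control oligomycin replicate 1 or 3.

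In LbNOX cells oligomycin and piericidin were compared directly, since both treatments share the DMSO samples. Expression differed at 3126 genes (26.1%), 1635 higher (13.6%) and 1491 lower (12.4%) with oligomycin. All 14 genes of amino acid synthesis but Cbs were higher with oligomycin, as were 11 of 13 ISR regulators, 17 of 20 tRNA synthetases and 14 of 16 ribosome biogenesis genes, while 18 of 19 cholesterol synthesis genes were lower. Trib3 had 463.5, 468 and 487 normalized counts with piericidin against 1955, 1861 and 1934 with oligomycin (log2 difference 2.02, SE 0.077, adjusted p = 9.81e-19). Atf3 had 23.9, 26.8 and 20.2 with piericidin (2.74, SE 0.21, adjusted p = 2.10e-11). The doses of the inhibitors differed, as given above.

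Among called genes with a mean of at least 50 normalized counts over these 6 samples and groups that did not overlap, predicted genes and pseudogenes left out, the largest increases over piericidin were those of Avil (5.17), Extl1 (4.63), Car6 (4.30) and Cdsn (3.64). Extl1, a heparan sulfate glycosyltransferase, had 113, 120 and 91.0 normalized counts with oligomycin, 2.07, 6.37 and 4.58 with piericidin and 5.37, 0.665 and 1.96 with DMSO. Under the same limits the largest decreases were those of Ndrg2 (-1.56), Prl2c3 (-1.54), Adamts7 (-1.48) and Acss2 (-1.44). Prl2c3 belongs to a family of near-identical prolactin-like genes, so its estimated counts are uncertain. Txnip, a glucose-responsive arrestin, was not called against DMSO with oligomycin (33.1, 17.0 and 25.7 against 35.8, 31.9 and 42.2), while it stood at 8.30, 7.65 and 7.33 with piericidin (oligomycin over piericidin 1.71, SE 0.37, adjusted p = 0.000634). Of 16 glycolysis genes 10 were lower and 1 was higher with oligomycin than with piericidin.

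Against antimycin, 5915 genes differed (49.4%), 2993 higher (25%) and 2922 lower (24.4%) with oligomycin. The LbNOX transgene itself had 218.2 to 312.0 CPM in the antimycin samples against 759.9 to 960.4 in the oligomycin samples, and its part in this comparison was not tested. ISR regulators were again mostly higher with oligomycin (11 of 13), Atf4 with 1623, 1668 and 1564 normalized counts in the antimycin samples (log2 difference 1.99, SE 0.033, adjusted p = 4.21e-28). All 17 p53 targets were lower with oligomycin, and Cdkn1a stood at 4376, 4410 and 4041 with antimycin (-1.61, SE 0.052, adjusted p = 8.85e-21). Over DMSO the p53 targets had a median of 0.10 with oligomycin and 1.015 with antimycin. Of 13 mitochondrially encoded mRNAs 11 were higher with oligomycin than with antimycin (median 1.24). Their median over DMSO was 0.13 with oligomycin and -1.37 with antimycin. The named genes furthest apart, by the same rule as for piericidin, were Dus4l (4.60), mt-Nd4l (3.96), Extl1 (3.59) and Zfp213 (3.53) on the higher side and Kank3 (-3.58), Plin4 (-3.11) and Ddit4l (-2.94) on the lower side. The mitochondrial mRNA mt-Nd4l had 0, 0 and 56.9 normalized counts in the antimycin samples, so its fold change is not precise. Gdf15 was not called, with 396, 390 and 413 under antimycin against 318, 348 and 358 (-0.24, SE 0.10, adjusted p = 0.0521).

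**Figure D5:**
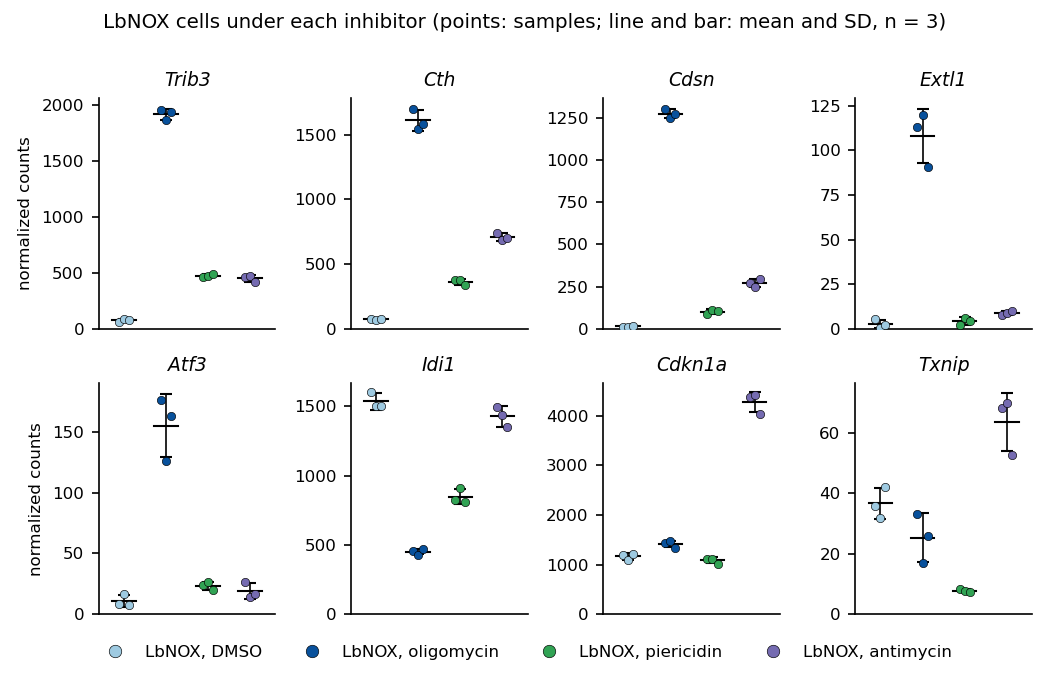
Normalized counts (y axis, linear from 0) of 8 genes in each LbNOX sample with DMSO, oligomycin, piericidin or antimycin, with the mean and SD of 3 samples. Trib3, Cth, Cdsn, Extl1 and Atf3 are highest with oligomycin and Idi1 is lowest, whereas Cdkn1a reaches 4041 to 4410 with antimycin and Txnip is lowest with piericidin.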

How the data were processed

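RNA was sequenced from 96 C2C12 samples, of which 37 were proliferating myoblasts treated for 10 h. The authors prepared Smart-seq2 libraries without strand information, quantified reads with kallisto 0.44 against GRCm38 transcripts and transgenes, and deposited estimated counts per gene, not normalized (54146 genes and 4 transgenes). Groups came from the sample labels. A gene was kept (11981 in all) if some group of the 13 had no replicate under 16 counts. The 37 samples were fitted together with edgeR 4.0.16 in R 4.3.3 (TMM, quasi-likelihood F test, Benjamini-Hochberg adjustment, threshold 0.05), and every adjusted p is from that fit unless an alternative is named. Standard errors were taken as the size of the log2 fold change over the root of its F value. Normalized counts used size factors of DESeq2 1.42.0. Depth was 7796879 to 14960910 counts per sample. Positions of genes are those of GENCODE M21, which held 11971 of the genes tested. The comparison, the gene lists and the rule for named genes (the largest called changes with a mean of at least 50 normalized counts, the 3 largest called members of each list, and 16 genes always given) were chosen with earlier results of these data known. Some genes that the rule names are not reported here. Members outside the rule are given as examples after their values were seen. The alternatives are given below, and the values within positions were added after the data were seen.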

Additional observations from a re-analysis of the deposited data

Results flagged for a closer look

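The response to oligomycin differed between LbNOX and control cells, by the edgeR test of the interaction, for 956 genes. The ranking took called genes with a mean of at least 50 normalized counts over the 12 samples of both lines, predicted genes and pseudogenes left out. Among them the interaction (log2 fold change in LbNOX cells minus that in control cells) was highest for Gprin3 (2.62), Slc16a3 (1.76), Igfbp4 (1.63), Angpt1 (1.60), Avpr1a (1.57) and Ctnnal1 (1.47). Gprin3 had a mean of 34.3 ± 2.86 normalized counts with oligomycin against 72.9 ± 5.45 with DMSO in LbNOX cells, and 7.72 ± 3.57 against 103.9 ± 23.1 in control cells (SD, n = 3). Igfbp4, which binds insulin-like growth factors, stood at 68.6 ± 8.65 against 10.1 ± 5.22 in LbNOX cells and at 133 ± 15.7 against 59.7 ± 11.9 in control cells (SD, n = 3). Its interaction was not called without LbNOX DMSO replicate 1, and that of Avpr1a was not called in 4 of 18 alternative fits.

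Among the same called genes the interaction was lowest for Atf3 (-2.19), Ppp1r15a (-1.64), Gpr176 (-1.51), Ptgs2 (-1.49), Snhg12 (-1.43) and Napb (-1.38). Ptgs2, the inducible cyclooxygenase, had 2091 ± 204 against 887.5 ± 89.7 normalized counts in LbNOX cells and 5024 ± 237 against 751 ± 39.8 in control cells (SD, n = 3). For Napb the LbNOX oligomycin samples had 27.7, 62.2 and 24.7 normalized counts, and its interaction was not called in 4 of 18 alternative fits.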

How the results depend on the processing

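Alternatives were DESeq2 size factors, no count filter, the Wald test of DESeq2, a replicate block, plate position as a factor, a fit of only the groups compared, and each replicate left out in turn. The number of genes called against DMSO in LbNOX cells ran from 3545 (only the 6 samples) to 4334 (plate position), against 4220, and from 3652 to 3781 without 1 replicate. For the interaction it ran from 679 (only the 12 samples) to 1125 (plate position), against 956, and from 727 to 868 without 1 replicate. Against piericidin it ran from 2182 to 3323 and against antimycin from 5151 to 6127. All 66 counts stayed within 1.5 times the reported ones. With the replicate block 4289 genes were called against DMSO in LbNOX cells, 6172 in control cells, 1020 for the interaction, 3185 against piericidin and 5990 against antimycin. The reported fit did not pair samples by number. Same-numbered oligomycin and DMSO samples of LbNOX cells had deviations that correlated at 0.264, 0.055 and 0.111, and differently numbered ones at -0.178 to 0.090. Oligomycin replicate 2 correlated best with DMSO replicate 3 (0.090). With antimycin samples each oligomycin sample of LbNOX cells correlated best with its own number (0.272, 0.056 and 0.125). Whether equal numbers share a batch was not tested. Of the values over the alternatives of named genes called as reported, 17 of 1307 (109 genes) against DMSO in LbNOX cells and 87 of 900 (50 genes) for the interaction were no longer called, and none changed sign. Of the values of those not called, 1 of 71 and 23 of 1165 were called. Of 1440 counts of list members 130 moved by over 1.5 times, 125 of them reported counts of 5 or fewer. Plate position is a reading of a label code that the labels do not explain; by it the groups are uneven, and all 3 control DMSO samples are outer. Genes with few counts, such as Cox6a2 and Fgf21 with DMSO, have no precise fold change at this depth.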
